A study of Mus musculus with 43 samples.

Results

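The data described here are nuclear RNA profiles of neurons from CK-p25 mice, a mouse model of neurodegeneration, with and without light flicker at 40 Hz. Of the 43 libraries of the series, 9 belong to this comparison, and they were chosen by the group that their labels name: 4 from mice that received the flicker for 43 days, called GENUS in the labels, and 5 from mice that received no stimulation. Both groups carry the same transgenes, Camk2a-tTA bred with tetO-CDK5R1/GFP, and in both p25 had been induced for 6 weeks. The Camk2a promoter is active chiefly in excitatory neurons of the forebrain, whereas the NeuN antibody used to sort the nuclei by flow cytometry marks most neurons, so a sorted nucleus need not carry p25. All nuclei came from the visual cortex. In addition, 5 libraries of CK mice, which the labels call wild type controls, serve as a reference level, and 11 libraries from P301S tau mice (Prnp promoter, 8 months of age, 6 unstimulated and 5 after 22 days of GENUS) serve for 1 comparison of the response. Neither the age of the CK-p25 mice nor the number of mice behind a library is stated. P-values therefore measure the spread between these libraries, which may be technical.

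Gamma oscillations are fast rhythms of the cortex that depend on inhibitory interneurons, and light that flickers at a gamma frequency drives neurons of the visual cortex at its own rhythm. p25 is a truncated activator of the kinase Cdk5, and its lasting presence in forebrain neurons leads to DNA damage, inflammation and neuron loss. Firing neurons switch on immediate early genes such as Fos, Egr1 and Arc through calcium and cAMP signals, and the transcription factor CREB with its CRTC coactivators is a link in that chain. Nuclear RNA holds unspliced and recently made transcripts and retained noncoding RNA, so its levels need not follow those of cytoplasmic messenger RNA.

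The sort gave libraries with high levels of neuronal genes. Rbfox3, which encodes the NeuN antigen, stood at 83.3, 73.7, 72.7, 85.6 and 89.4 FPKM in untreated replicates 1 to 5 and at 84.8, 80.1, 78.8 and 90.4 in GENUS replicates 1 to 4 (FPKM divide fragments by transcript length and library total). The mouse Cdk5r1 row, to which reads of the transgene could add, stood at 26.5, 25.4, 24.5, 22.6 and 26.1 in untreated and 25.4, 27.3, 21.8 and 25.4 in GENUS libraries, against 20.5 to 32.9 in CK libraries, so it did not separate p25 mice from controls here. The 9 libraries each had 12308 to 12555 genes at 1 FPKM or more. Pearson correlations of log2(FPKM + 1) were 0.879 to 0.903 between libraries of 1 group and 0.871 to 0.908 between groups. A pair of libraries stood apart from the rest. Untreated replicate 2 lay farthest out on the first principal component, which held 16.2% of the variance, and GENUS replicate 3 on the second, which held 15.5%. GENUS replicate 3 also held more RNA of other cell types. Its 20 astrocyte markers summed to 428.2 FPKM, against 252.6, 253.0 and 262.3 in the other GENUS libraries and 190.7 to 251.8 in untreated ones. Its 19 endothelial and mural markers summed to 24.1 FPKM, against 6.97 to 9.62 and 6.27 to 9.18. Genes named by rule and list medians were also computed without this library, and values without it are given for some of them. A value printed alone may also move when this library is left out.

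With limma, 0 of 12588 genes passed an adjusted p of 0.05 between GENUS and untreated CK-p25 nuclei (0% called), and the lowest adjusted p was 0.192. Counted at an unadjusted p under 0.05, 970 genes stood out, of which 472 were higher after GENUS (3.75% of those tested) and 498 lower (3.96%). The whole distribution was centred on no difference, with 6307 genes above 0 and 6281 below it, and the log2 changes ran from -0.40 at the 5th to 0.42 at the 95th percentile. All log2 changes are on the log2(FPKM + 1) scale, GENUS minus untreated, which understates the change of low genes. For 163 genes every GENUS library lay above every untreated one (1.29%), and for 163 every one lay below (1.29%). None of the single genes below passed the test, so they are given by their values. The lower and higher genes named first, by smallest p, were chosen among genes whose groups do not overlap. Their separation is fixed by that choice.

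**Figure D1:**
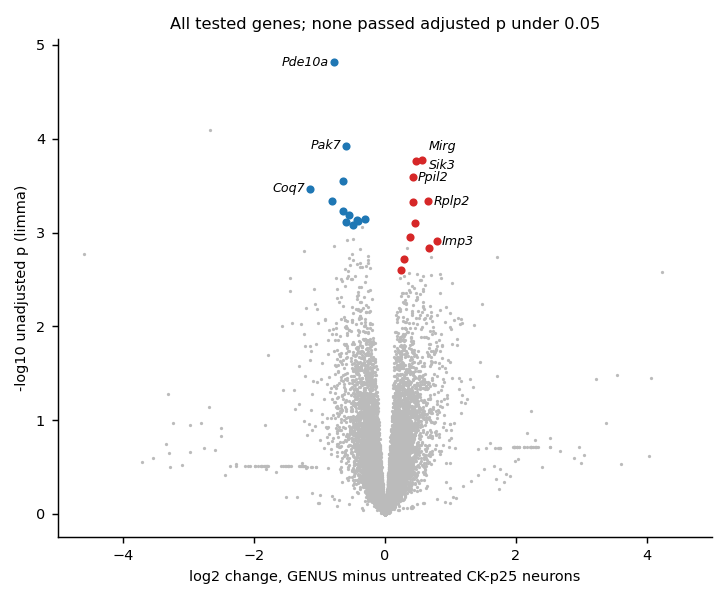
Each point is 1 of 12588 tested genes, with its log2 change (GENUS minus untreated CK-p25 nuclei) on the horizontal axis and the negative log10 of its unadjusted limma p on the vertical axis. Blue and red points are the 12 lower and 11 higher genes named here, and Pde10a stands above them with a log2 change of -0.78; grey points include small RNAs and clone names, which the rule leaves out.

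The smallest p of all tested genes belonged to Pde10a, a phosphodiesterase that breaks down cAMP and cGMP and is best known from the medium spiny neurons of the striatum. Pde10a stood at 40.5, 39.5, 33.4, 42.4 and 43.9 FPKM in untreated replicates 1 to 5 and at 26.9, 20.99, 23.6 and 19.8 in GENUS replicates 1 to 4. The highest GENUS library lay below the lowest untreated one, as the choice of genes requires. The CK libraries (42.3, 34.3, 29.4, 47.5 and 29.2) all lay above the GENUS values. The log2 change was -0.78 (SE 0.10, adjusted p = 0.192), and it was -0.80 without GENUS replicate 3. Pak7, a kinase of the PAK family that binds the GTPases Cdc42 and Rac, stood at 42.3, 53.1, 46.99, 54.9 and 61.3 FPKM in untreated and 33.96, 35.4, 34.1 and 31.5 in GENUS libraries (log2 change -0.59, SE 0.10, adjusted p = 0.43004). Its untreated values spread from 42.3 to 61.3, and its GENUS values lay close together below them. Csgalnact1, which starts chondroitin sulfate chains, stood at 14.2, 13.2, 12.6, 12.7 and 14.5 FPKM in untreated and 10.7, 6.93, 7.998 and 7.98 in GENUS libraries. Coq7, a hydroxylase of ubiquinone synthesis, had the largest difference of the named lower genes, with 4.39, 5.31, 7.57, 5.58 and 6.21 FPKM in untreated and 1.37, 2.27, 3.43 and 1.48 in GENUS libraries (log2 change -1.15, SE 0.22, adjusted p = 0.537).

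The other lower genes named by rule also differ in what they are known to do. Atp2c1, the calcium and manganese pump of the Golgi, was the most abundant of them at 78.6, 76.7, 81.7, 76.8 and 68.8 FPKM untreated and 65.1, 64.1, 59.1 and 59.4 after GENUS (log2 change -0.30, SE 0.06). Arf2, a small GTPase of vesicle budding, had a log2 change of -0.65, and Tmem87a, a membrane protein of the Golgi, of -0.43. Mpv17, an inner mitochondrial membrane protein, stood at 14.4, 13.4, 10.4, 14.9 and 13.5 FPKM untreated and 9.01, 9.01, 7.84 and 9.14 after GENUS, with GENUS replicate 3 the lowest. Spred1, an inhibitor of the Ras to MAP kinase pathway, stood at 36.1, 34.9, 38.7, 48.9 and 50.97 and 25.5, 24.97, 32.03 and 26.2 (log2 change -0.60). Cnih2, an auxiliary subunit of AMPA-type glutamate receptors, stood at 10.6, 12.2, 11.3, 14.2 and 11.3 and 8.07, 8.98, 7.91 and 7.79 (log2 change -0.49). Tm2d1 (log2 change -0.82) and the zinc finger gene Zfp945 (-0.42) complete the 12. Without GENUS replicate 3, the 12 log2 changes ranged from -1.33 to -0.28.

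On the higher side, Sik3 and Mirg had the smallest p. Sik3 is a salt-inducible kinase that phosphorylates CRTC coactivators and class IIa histone deacetylases, which keeps them out of the nucleus, and in mice it is known for its part in sleep need. It stood at 18.01, 16.9, 15.5, 19.6 and 15.4 FPKM in untreated replicates 1 to 5 and at 23.5, 24.2, 23.6 and 24.7 in GENUS replicates 1 to 4, with CK libraries at 20.5, 17.5, 19.5, 17.6 and 22.7. As the choice of genes requires, all GENUS values lay above every untreated value. They lay close together, and above every CK value too. The log2 change was 0.47 (SE 0.08, adjusted p = 0.43004), and 0.48 without GENUS replicate 3. Mirg, an imprinted noncoding RNA of the Dlk1 to Meg3 region that hosts many microRNAs, stood at 30.03, 35.8, 32.1, 30.7 and 40.7 FPKM untreated and 52.9, 55.6, 49.1 and 44.6 after GENUS (log2 change 0.57, SE 0.10, adjusted p = 0.43004), and its CK values of 38.2 to 47.9 reached into both ranges. Pde10a, Sik3 and Mirg passed in 1 limma fit, chosen after seeing the data, each with an adjusted p of 0.0475. That fit also held the P301S libraries and kept genes of at least 5 FPKM on average. With a minimum of 1 FPKM the same fit called 0 genes, and so did the fit of the 9 libraries at 5 FPKM.

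The Sik3 promoter is shown because Sik3 acts on the CREB pathway and its own start region holds letters of the cAMP response element. The window runs from 250 bases before to 50 after the RefSeq start, chr9:46012570-46012869 on the plus strand of GRCm38.p6, which is not the build of the deposited values. Capitals mark the short cAMP response element TGACG, at 133, 116 and 57 bases before the start, and the E-box CACGTG, at 120 bases before it, which shares bases with the second short element.
Sik3: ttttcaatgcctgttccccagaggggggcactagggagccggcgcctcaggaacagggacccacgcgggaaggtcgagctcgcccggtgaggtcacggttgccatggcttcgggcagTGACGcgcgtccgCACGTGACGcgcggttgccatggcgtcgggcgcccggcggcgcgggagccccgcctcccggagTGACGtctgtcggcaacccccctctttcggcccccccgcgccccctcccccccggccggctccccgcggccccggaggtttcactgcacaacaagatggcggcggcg
Both strands were searched. TGACG was found in 20.8% of 32851 RefSeq windows of the same length, and by gene in 36.8% of the 9275 tested genes with a window. It was found in Sik3, Rplp2 and Dlgap4 of the 9 named higher genes with a window and in Coq7 of the 10 named lower ones. The full element TGACGTCA was found in 1.79% of windows (3.81% of tested genes with a window) and in none of these genes. The EGR1-type letters GCGGGGGCG were found in 2.91% of windows (6.77% by gene) and in none of them. CACGTG was found in 7.15% of windows (11.85% by gene), and of the named genes in Sik3 and Mpv17. Both RefSeq windows of Pde10a held none of the 4 motifs. A match of letters is a description and not a site.

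**Figure D2:**
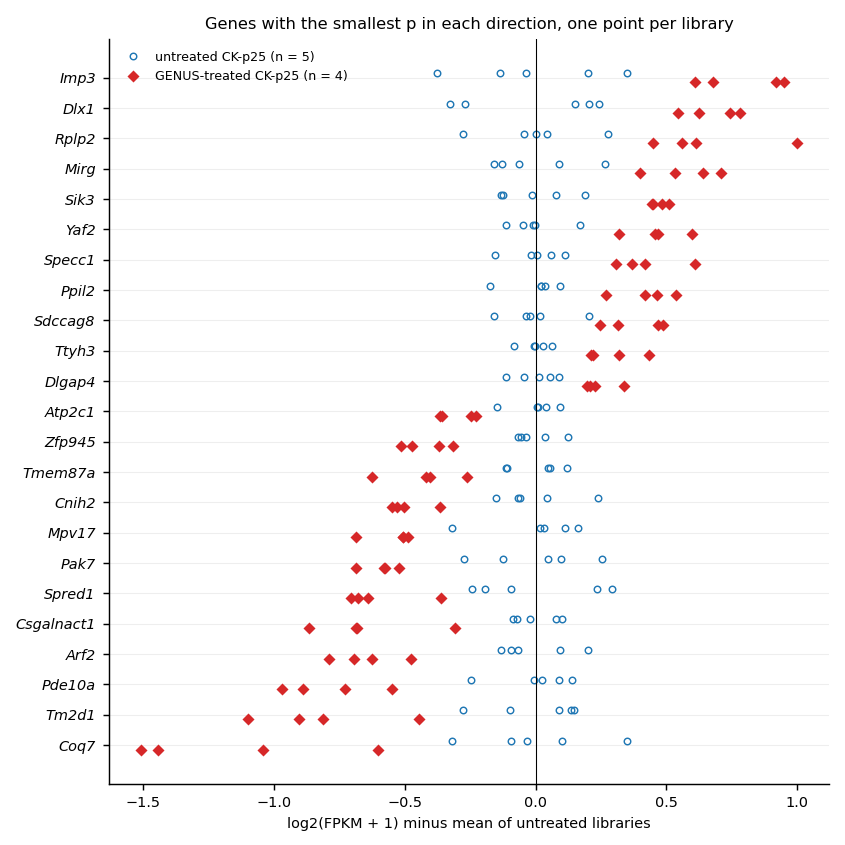
Each row is a gene, with 1 open blue circle for each of the 5 untreated and 1 filled red diamond for each of the 4 GENUS libraries, placed by log2(FPKM + 1) minus the mean of the untreated libraries. The 23 genes were chosen by the smallest p in each direction among genes whose groups do not overlap, so that separation is fixed by the choice; Coq7 reaches farthest down and Imp3 and Rplp2 farthest up.

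The remaining higher genes named by rule differ in what they are known to do. Rplp2, a protein of the ribosomal stalk, stood at 18.7, 15.8, 19.4, 19.98 and 23.7 FPKM untreated and 26.8, 29.03, 39.7 and 30.1 after GENUS (log2 change 0.65, SE 0.13), with GENUS replicate 3 the highest. Imp3, part of the machinery that processes ribosomal RNA, stood at 2.81, 2.56, 3.97, 2.01 and 3.49 and 5.26, 6.56, 4.95 and 6.397 (log2 change 0.79). Ppil2, a peptidyl-prolyl isomerase, stood at 27.2, 22.4, 25.8, 26.1 and 25.8 and 34.3, 35.3, 37.3 and 30.8 (log2 change 0.42, SE 0.08). Yaf2, a component of Polycomb complexes, had a log2 change of 0.46. Dlgap4, a scaffold of the postsynaptic density, stood at 51.2, 44.4, 48.6, 46.7 and 49.99 and 61.1, 55.3, 55.7 and 56.5 (log2 change 0.24). Specc1, the centrosomal gene Sdccag8 and Ttyh3, of a family of chloride channels, had log2 changes of 0.43, 0.38 and 0.30. Dlx1, a homeobox gene of cortical interneurons, stood at 3.55, 5.74, 5.57, 3.73 and 5.32 FPKM untreated and 7.31, 8.79, 8.56 and 7.79 after GENUS (log2 change 0.67, SE 0.16).

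Genes of a pathway are described next by lists that were drawn up with earlier results of these data known, so their counts describe these libraries only. The list of cAMP, CREB and SIK signalling had 28 tested members, 0 past the test, with 18 above 0 and 10 below, and a median log2 change of 0.03 beside 0.00040 for all tested genes. At an unadjusted p under 0.05 it held 4 higher genes, Sik3 among them, and 1 lower. Over all tested genes 3.75% were higher and 3.96% lower, shares against which each later count of this kind is to be read. The median of the list was -0.0026 without GENUS replicate 3. Sik2, another kinase of the family, stood at 17.8, 13.1, 11.6, 13.1 and 13.4 FPKM untreated and 17.1, 20.4, 20.9 and 16.5 after GENUS (log2 change 0.42, SE 0.12), and 1 untreated library reached into the GENUS range. Sik1, the member that activity itself induces, stood low in all libraries, at 1.19, 0.7197, 1.34, 3.03 and 2.02 and 0.659, 1.11, 0.974 and 1.44 (log2 change -0.33). Adcy3, an adenylyl cyclase that makes cAMP, stood at 13.4, 15.8, 15.3, 15.5 and 14.1 and 16.8, 16.4, 18.9 and 18.7 (log2 change 0.24), with no overlap. Hdac4, a class IIa deacetylase that SIK kinases phosphorylate, had a log2 change of 0.18, and of 0.11 without GENUS replicate 4. Prkar2b, a regulatory subunit that holds protein kinase A inactive, stood at 13.1, 9.203, 12.3, 9.62 and 8.83 FPKM untreated and 7.48, 7.03, 4.92 and 6.87 after GENUS (log2 change -0.61, SE 0.16), again with no overlap. The CRTC coactivators lay near 0, as Crtc1, Crtc2 and Crtc3 had log2 changes of 0.02, 0.03 and 0.03, and the catalytic subunit Prkaca of -0.08.

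Of 16 phosphodiesterases tested, Pde10a was the only one with an unadjusted p under 0.05, and the median log2 change of the list was -0.05, and 0.017 without untreated replicate 1, with 7 members above 0 and 9 below. The list of genes enriched in the striatum, to which Pde10a also belongs, had 16 tested members, 4 above 0 and 12 below, with a median of -0.27. It held 4 lower genes at an unadjusted p under 0.05 and 1 higher, and 0 past the test. Rgs9, which speeds the shut-off of G proteins behind dopamine receptors, stood at 23.4, 21.7, 29.7, 26.1 and 28.9 FPKM untreated and 17.8, 16.6, 21.9 and 15.3 after GENUS (log2 change -0.51, SE 0.12). Ppp1r1b, the phosphatase inhibitor DARPP-32, stood at 4.47, 6.66, 5.82, 6.52 and 6.34 and 3.19, 2.85, 4.84 and 2.78 (log2 change -0.67, SE 0.18). For both genes GENUS replicate 3 was the highest GENUS library and overlapped the untreated range, and without it their log2 changes were -0.61 and -0.81. The dopamine receptor gene Drd1a stood at 4.75, 3.96, 4.48, 4.64 and 5.01 and 3.12, 4.19, 3.41 and 3.15 (log2 change -0.32). Gng7, a G protein subunit, was the higher member, at 3.06, 1.56, 1.67, 2.59 and 2.75 and 2.69, 4.43, 3.97 and 3.43 (log2 change 0.49). Other members lay nearer to 0. Arpp21 stood at 628, 591, 589, 594 and 597 FPKM untreated and 626, 629, 571 and 623 after GENUS (log2 change 0.03), Scn4b had a log2 change of -0.07 and Foxp1 of -0.12. Adora2a, the adenosine receptor of striatal neurons, did not reach the minimum mean of 1 FPKM, at 0.601 to 1.20 untreated and 0 to 0.877 after GENUS. The median of the list was -0.30 without GENUS replicate 3. In bulk libraries such as these, fewer cells of a type and less RNA in each cell cannot be told apart.

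Activity-regulated genes overlapped between the groups, and their lists lay mostly below 0. The list of immediate early transcription factors had 15 tested members, 3 above 0 and 12 below, with a median of -0.15, and early activity effectors had 15, 1 above 0 and 14 below, with a median of -0.19. Late activity-induced genes had 19 members, 9 above 0 and 10 below, with a median of -0.08. These medians moved when 1 library was left out. That of the immediate early factors was -0.31 without untreated replicate 2, -0.08 without untreated replicate 4 and -0.09 without GENUS replicate 1. That of the early effectors was -0.29 without untreated replicate 2, -0.32 without GENUS replicate 2 and -0.14 without GENUS replicate 3. The late genes stood at -0.02 without untreated replicate 3, at -0.02 without GENUS replicate 1, at -0.05 without untreated replicate 4 and at -0.04 without GENUS replicate 4. None of these genes passed the test, and at an unadjusted p under 0.05 there were Jun on the higher side and Per1 on the lower. Egr1 stood at 25.2, 34.2, 28.2, 43.9 and 40.8 FPKM in untreated and 38.8, 45.1, 28.5 and 40.8 in GENUS libraries, with CK libraries at 52.4 to 98.7. The CK-p25 groups overlapped throughout and both lay below every CK library. Npas4, a transcription factor induced by calcium influx, stood at 14.2, 18.5, 17.2, 18.6 and 20.1 and 15.8, 22.2, 14.2 and 19.3, with CK at 23.3 to 34.4. Arc, which removes AMPA receptors from synapses, stood at 6.06, 20.5, 18.98, 40.95 and 46.8 untreated and 25.4, 18.7, 7.52 and 18.8 after GENUS, with CK at 47.04 to 115. Its untreated libraries spread over several-fold, which is wider than the difference between the groups (log2 change -0.40, SE 0.52). The log2 change of Arc was -0.07 without GENUS replicate 3, -0.61 without GENUS replicate 1, and -0.83, -0.18 and -0.13 without untreated replicates 1, 4 and 5.

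Per1 is a clock gene that neuronal activity and cAMP also induce. It stood at 11.01, 17.8, 20.6, 33.3 and 35.6 FPKM in untreated and 15.1, 13.6, 10.1 and 11.5 in GENUS libraries (log2 change -0.76, SE 0.29, adjusted p = 0.586). Untreated replicates 4 and 5 were the highest, as they were for Arc and Homer1 (79.9, 54.1, 105, 121 and 126 untreated, 66.97, 80.9, 70.5 and 63.3 after GENUS), while untreated replicate 1 lay within the GENUS range. The circadian list as a whole had 21 members, 8 above 0 and 13 below, with a median of -0.04 (0.03 without GENUS replicate 2), and Per1 was its only member with an unadjusted p under 0.05. Jun stood at 9.38, 9.72, 12.2, 11.5 and 10.5 FPKM untreated and 12.96, 15.03, 10.6 and 13.998 after GENUS (log2 change 0.27), both above the CK range of 3.54 to 6.96. Fos had a log2 change of -0.38 (SE 0.29), Nr4a1 of -0.34 (SE 0.22) and Bdnf, the growth factor, of -0.18 (SE 0.21). Without untreated replicate 4 these were -0.25, -0.17 and -0.10, without untreated replicate 5 Fos was -0.23 and Bdnf -0.09, and without GENUS replicate 4 Nr4a1 was -0.22 and Bdnf -0.08. Bdnf was -0.32 without untreated replicate 2. The labels do not give the time between the last flicker session and the collection of tissue.

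**Figure D3:**
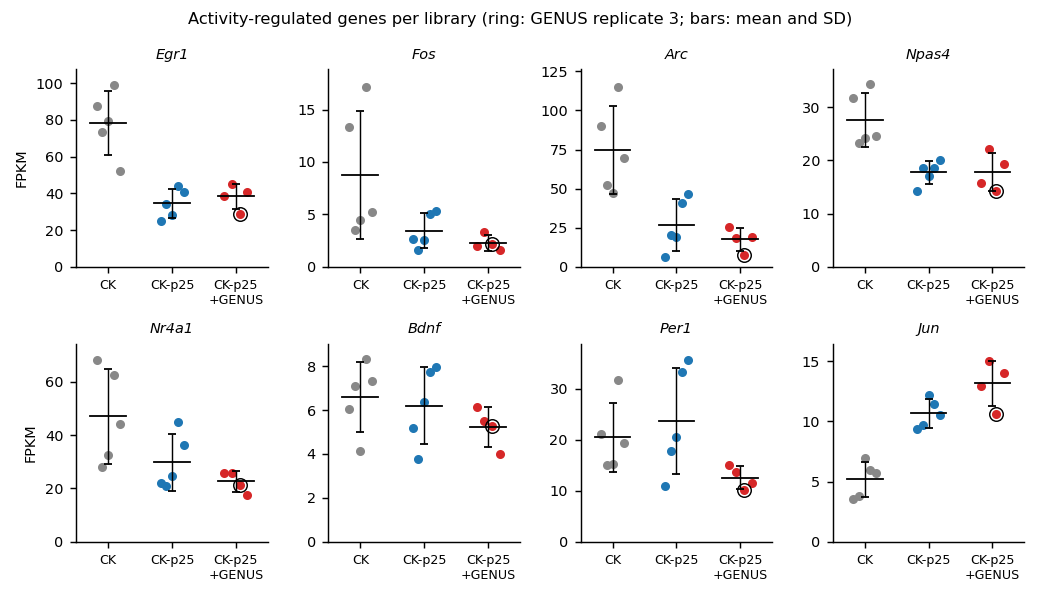
FPKM of 8 activity-regulated genes in each library of CK (grey, n = 5), untreated CK-p25 (blue, n = 5) and GENUS-treated CK-p25 mice (red, n = 4), with lines at the mean and bars of 1 SD; a ring marks GENUS replicate 3. The CK-p25 groups overlap for all 8 genes, and Egr1 and Arc lie below the CK libraries in both.

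Genes of inhibitory synapses lay mostly below 0. The list of GABA-A receptor subunits and gephyrin partners had 14 tested members, 3 above 0 and 11 below, with a median of -0.12, and 4 were lower at an unadjusted p under 0.05, Gabra2 and Gabra3 among them, with 0 higher and 0 past the test. Over all tested genes 3.96% were lower at that p. Gabra2 stood at 20.6, 17.7, 23.1, 25.9 and 22.4 FPKM untreated and 16.96, 14.2, 17.4 and 17.8 after GENUS (log2 change -0.38, SE 0.11). Untreated replicate 2 lay within the GENUS range. Gabra3 had a log2 change of -0.30. Untreated replicate 1 had the lowest mean of this list among untreated libraries. Without it the median was -0.13, and without GENUS replicate 3 it was -0.10.

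Ion channels went both ways. Of 23 voltage-gated sodium and calcium channel genes, 5 were lower and 1 higher at an unadjusted p under 0.05, with 10 above 0, 13 below and a median of -0.03. Cacna1d, a calcium channel of the L type, stood at 54.4, 60.003, 60.5, 63.6 and 60.3 FPKM untreated and 53.1, 55.4, 50.9 and 51.3 after GENUS (log2 change -0.18, SE 0.06). Cacna1e had a log2 change of -0.19, Scn3b of -0.27, Scn3a of -0.17 and Scn1a, the sodium channel of fast-spiking interneurons, of -0.14. Cacnb2, an auxiliary calcium channel subunit, was on the other side at 0.23. Among 39 potassium channel genes, 3 were higher and 3 lower. Kcnma1, the channel opened by calcium and voltage together, stood at 135, 126, 134, 137 and 139 FPKM untreated and 116, 119.9, 105 and 118 after GENUS, with no overlap (log2 change -0.22, SE 0.06), and Hcn2, a pacemaker channel, at 11.1, 11.6, 14.1, 14.5 and 15.1 and 17.2, 15.2, 14.8 and 16.5 (log2 change 0.25).

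At excitatory synapses, postsynaptic scaffolds and glutamate receptors had 42 tested members, 19 above 0 and 23 below, with a median of -0.01, and 5 higher and 3 lower at an unadjusted p under 0.05. Shank1, a scaffold of the postsynaptic density, stood at 93.3, 89.2, 89.4, 93.5 and 84.04 FPKM untreated and 94.03, 105, 99.7 and 102 after GENUS (log2 change 0.16, SE 0.06), and its relative Shank2 had a log2 change of 0.15. Dlg3 and Nrxn2 had log2 changes of 0.25 and 0.18. On the lower side, Grm3, a metabotropic glutamate receptor that lowers cAMP, stood at 34.7, 40.99, 53.1, 48.3 and 48.1 and 32.4, 29.5, 31.7 and 32.1 (log2 change -0.49, SE 0.11), with no overlap, and the adhesion protein Nlgn1 and the AMPA receptor subunit Gria3 had log2 changes of -0.15 and -0.16. The differences of all these genes except Grm3 were smaller than 0.3 on the log2 scale.

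Presynaptic genes lay on both sides of 0. Of 38 genes of the synaptic vesicle cycle, 23 lay above 0 and 15 below, with a median of 0.05, and 0.03 without GENUS replicate 3 or 4 and 0.08 without untreated replicate 1. Syt4, a synaptotagmin that binds little calcium, stood at 53.8, 56.7, 47.95, 56.9 and 52.96 FPKM untreated and 46.6, 43.5, 43.4 and 44.9 after GENUS (log2 change -0.26, SE 0.06), and Syt7, a slow calcium sensor, at 75.9, 71.8, 74.6, 80.6 and 89.8 and 71.2, 66.1, 63.3 and 67.1 (log2 change -0.22). No GENUS library overlapped an untreated one for either. Nsf, the ATPase that takes SNARE complexes apart, was at 58.8, 43.2, 43.02, 40.7 and 39.1 and 49.3, 51.1, 67.3 and 56.4 (log2 change 0.32), with untreated replicate 1 far above the other untreated libraries. The endocytosis list had 29 members, 21 above 0 and 8 below, with a median of 0.07. Itsn1, a scaffold of endocytosis, stood at 37.8, 34.1, 37.5, 35.9 and 38.5 and 38.4, 43.97, 41.7 and 41.6 (log2 change 0.17), while the dynamin genes Dnm1 and Dnm3 had log2 changes of 0.05 and 0.10.

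Genes of transport along microtubules lay mostly above 0, by small differences. Of 36 kinesin, dynein and adaptor genes, 27 lay above 0 and 9 below, with a median of 0.06 (0.10 without untreated replicate 1), and 5 were higher and 2 lower at an unadjusted p under 0.05. Kif1b, a kinesin that carries synaptic vesicle precursors and mitochondria, stood at 93.6, 94.1, 98.9, 93.997 and 89.6 FPKM untreated and 103, 101, 115 and 106 after GENUS (log2 change 0.17, SE 0.06), and Kif21a at 100.1, 98.2, 93.7, 100.3 and 94.3 and 111, 104, 105 and 111 (log2 change 0.14). Neither overlapped. The dynein intermediate chain gene Dync1i2 was on the lower side at 133, 125, 121, 124 and 127 and 113, 117, 107 and 116 (log2 change -0.15). The microtubule and neurofilament list had 28 members, 19 above 0 and 9 below, and its median of 0.08 was 0.01 without GENUS replicate 3 and 0.03 without untreated replicate 5. Of 41 Golgi and endosome genes, 22 lay above 0 and 19 below, with a median of 0.02 (-0.0047 without GENUS replicate 1). Snx1, a sorting nexin of the retromer, stood at 9.97, 13.7, 11.7, 16.8 and 15.9 and 20.002, 19.6, 16.1 and 19.4 (log2 change 0.45), and Vps29, another retromer subunit, at 11.5, 12.3, 11.4, 10.9 and 7.67 and 5.36, 7.26, 9.72 and 8.37 (log2 change -0.45), in the opposite direction.

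Around Pak7, the PAK and small GTPase list had 27 members, 14 above 0 and 13 below, with a median of 0.02 (-0.04 without untreated replicate 5 and 0.09 without untreated replicate 1). Tiam1, an exchange factor that activates Rac, stood at 28.1, 25.99, 27.01, 25.1 and 20.1 FPKM untreated and 28.7, 31.2, 32.6 and 35.6 after GENUS, with no overlap (log2 change 0.33, SE 0.10). Trio, a further exchange factor, had a log2 change of 0.13, and Rac3, a Rac GTPase of neurons, stood at 3.96, 3.42, 4.79, 4.84 and 4.41 and 2.11, 4.0997, 2.65 and 1.71 (log2 change -0.57). Iqgap2 stood at 38.2, 30.4, 27.9, 21.8 and 16.9 and 47.4, 31.5, 34.8 and 39.4 (log2 change 0.52). Around Csgalnact1, the list of chondroitin sulfate and perineuronal net genes had 18 members, 11 above 0 and 7 below. Its higher member was Ptprz1, a receptor phosphatase that carries chondroitin sulfate and is also abundant in astrocytes and oligodendrocyte precursors, at 3.26, 3.16, 5.84, 2.65 and 2.88 and 6.996, 5.07, 7.64 and 5.16 (log2 change 0.69, SE 0.21).

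Housekeeping genes of mitochondria and ribosomes had medians above 0. Oxidative phosphorylation had 44 tested members, 32 above 0 and 12 below, with a median of 0.14, and 6 higher and 1 lower at an unadjusted p under 0.05. Its members summed to 883, 639, 662, 632 and 676 FPKM in untreated and 818, 751, 854 and 710.4 in GENUS libraries. Untreated replicate 1 was the highest library of all, so the groups overlapped, and the median was 0.24 without it, 0.08 without GENUS replicate 3 and 0.08 without untreated replicate 2. Ndufa9, a subunit of complex I, stood at 12.5, 7.57, 9.66, 8.89 and 7.91 FPKM untreated and 13.3, 12.5, 14.6 and 12.6 after GENUS (log2 change 0.49, SE 0.14). Cox4i1, a subunit of cytochrome oxidase, stood at 28.2, 24.3, 17.03, 19.3 and 22.02 and 24.6, 34.3, 40.2 and 30.4 (log2 change 0.53). Untreated replicate 1 lay within the GENUS range for both. Cytosolic ribosomal protein genes had 53 tested members, 33 above 0 and 20 below, with a median of 0.11, and 7 higher and 1 lower. Their reads can be shared with processed pseudogenes, so single members are uncertain. Rpl15 stood at 6.46, 5.22, 4.06, 3.499 and 5.24 and 8.29, 8.93, 7.22 and 7.17 (log2 change 0.61) and Rpl5, in the other direction, at 8.8996, 7.08, 6.81, 5.27 and 7.31 and 3.87, 5.48, 3.59 and 4.22 (log2 change -0.61). The median of this list was 0.24 without untreated replicate 1 and 0.21 without GENUS replicate 1.

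Other cell maintenance lists stayed near 0. Proteasome (31 members), unfolded protein response (19), autophagy (36), glycolysis (22) and sterol synthesis (21) had medians of -0.01, 0.02, -0.01, 0.03 and -0.06, and the first 4 of these changed sign when GENUS replicate 3 or another single library was left out. Psmb4, a proteasome subunit, stood at 12.5, 7.18, 9.299, 7.53 and 9.79 FPKM untreated and 14.1, 12.3, 18.5 and 17.3 after GENUS (log2 change 0.70, SE 0.17). Srebf1, a transcription factor of lipid synthesis, stood at 2.37, 3.18, 3.52, 3.06 and 3.37 and 5.77, 4.78, 5.26 and 4.55 (log2 change 0.57, SE 0.15), with no overlap. Ldha, which makes lactate, stood at 12.2, 7.87, 13.6, 10.4 and 8.18 and 7.01, 6.67, 7.31 and 6.78 (log2 change -0.50, SE 0.16), and Eno2, the neuronal enolase, had a log2 change of 0.23. Map1lc3a, an autophagosome protein, stood at 7.04, 2.13, 3.87, 5.58 and 2.49 and 9.303, 5.01, 13.1 and 9.49 (log2 change 0.998, SE 0.32), and its libraries overlapped.

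In the nucleus itself, 35 chromatin regulators had 25 members above 0 and 10 below, with a median of 0.05. Of them 4 had an unadjusted p under 0.05, all higher and without overlap, where 3.75% of all tested genes were higher at that p and 1.29% higher without overlap. Chd2, a remodelling ATPase, stood at 40.5, 37.2, 36.1, 37.1 and 36.1 FPKM untreated and 44.3, 46.5, 43.3 and 41.9 after GENUS (log2 change 0.23, SE 0.06). Smarca2, an ATPase of the BAF complex, stood at 63.8, 53.6, 54.9, 50.4 and 45.1 and 71.5, 64.2, 64.5 and 72.04 (log2 change 0.35), and Rad21, the cohesin subunit, at 16.8, 17.6, 14.7, 18.7 and 19.2 and 24.1, 20.2, 25.1 and 20.8 (log2 change 0.36). Kmt2a, a histone methyltransferase, differed least of the 4 (log2 change 0.12). Of 40 splicing factors, 16 lay above 0 and 24 below. Ddx17, an RNA helicase, stood at 244, 278, 282, 256 and 262 and 243, 223, 198 and 235 (log2 change -0.23, SE 0.07). Of 12 nuclear noncoding and imprinted RNAs, Mirg and Neat1 had an unadjusted p under 0.05. Neat1, the scaffold of paraspeckles, stood at 3.94, 5.397, 4.35, 5.18 and 2.797 and 5.23, 5.86, 12.4 and 7.11 (log2 change 0.66, and 0.42 without GENUS replicate 3), and GENUS replicate 3 alone was above 10. Mirg's neighbours in the imprinted region did not stand with it: Meg3 had a log2 change of 0.04 (SE 0.11) and Rian of 0.07 (SE 0.08).

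Genes tied to p25 pathology did not pass the test after GENUS either. Of 23 genes of Cdk5, tau and amyloid, 6 lay above 0 and 17 below, with a median of -0.03 (-0.06 without GENUS replicate 4 or untreated replicate 1 or 2), and Adam10, the alpha-secretase, was the only one with an unadjusted p under 0.05, at 15.3, 21.6, 17.997, 21.8 and 18.7 FPKM untreated and 16.1, 15.5, 16.3 and 15.2 after GENUS (log2 change -0.25). DNA repair and p53 response genes had 30 members, 12 above 0 and 18 below, with a median of -0.07 (-0.04 without GENUS replicate 3 and -0.03 without untreated replicate 5) and none at an unadjusted p under 0.05. Mcm3, a subunit of the replicative helicase, stood at 7.96, 11.03, 11.2, 10.04 and 7.54 untreated and 6.497, 11.001, 9.33 and 7.68 after GENUS, with CK at 0 to 0.303 (log2 change -0.14, SE 0.17). Leaving out 1 library moved its log2 change between -0.25 (without GENUS replicate 2) and -0.03 (without GENUS replicate 1). Both CK-p25 groups thus lay above every CK library, and they overlapped each other. The cell cycle list had 28 members, 17 above 0 and 11 below, and its 1 gene at an unadjusted p under 0.05 was Ccnd2, a D-type cyclin, at 6.99, 9.03, 7.27, 8.16 and 9.94 untreated and 6.12, 6.29, 4.96 and 5.78 after GENUS, with CK at 5.22 to 7.78 (log2 change -0.45, SE 0.13).

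Interferon-stimulated genes had 21 tested members, 16 above 0 and 5 below, with a median of 0.21. The median was 0.11, 0.43 and 0.14 without GENUS replicates 1, 2 and 3. Oasl2 stood at 0.694, 0.842, 1.31, 1.15 and 1.36 FPKM untreated and 4.34, 1.44, 2.03 and 1.58 after GENUS, with CK at 0 to 0.241 (log2 change 0.63, SE 0.27, and 0.38 without GENUS replicate 1), and Irf7, a transcription factor of this response, at 1.29, 1.95, 1.82, 1.22 and 2.52 and 2.697, 3.01, 3.02 and 2.29, with CK at 0 to 1.22. Ifit1 stood at 11.9, 8.34, 12.6, 7.102 and 8.59 and 23.4, 7.13, 12.96 and 9.92 (log2 change 0.33, SE 0.29), and these groups overlapped. GENUS replicate 1 stood far above the others, and the log2 change of Ifit1 was 0.04 without it and 0.56 without GENUS replicate 2. Class I antigen presentation had 13 members, 9 above 0 and 4 below, with a median of 0.13 and none at an unadjusted p under 0.05. Its median was 0.06 without GENUS replicate 1, 0.23 without GENUS replicate 2 and 0.24 without untreated replicate 3. Microglial markers, whose cells also express these genes, summed higher in GENUS replicates 1 to 3 than in any untreated library, as given below. GENUS replicate 4 lay below untreated replicate 1. The part of microglia in these values was not tested.

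**Figure D4:**
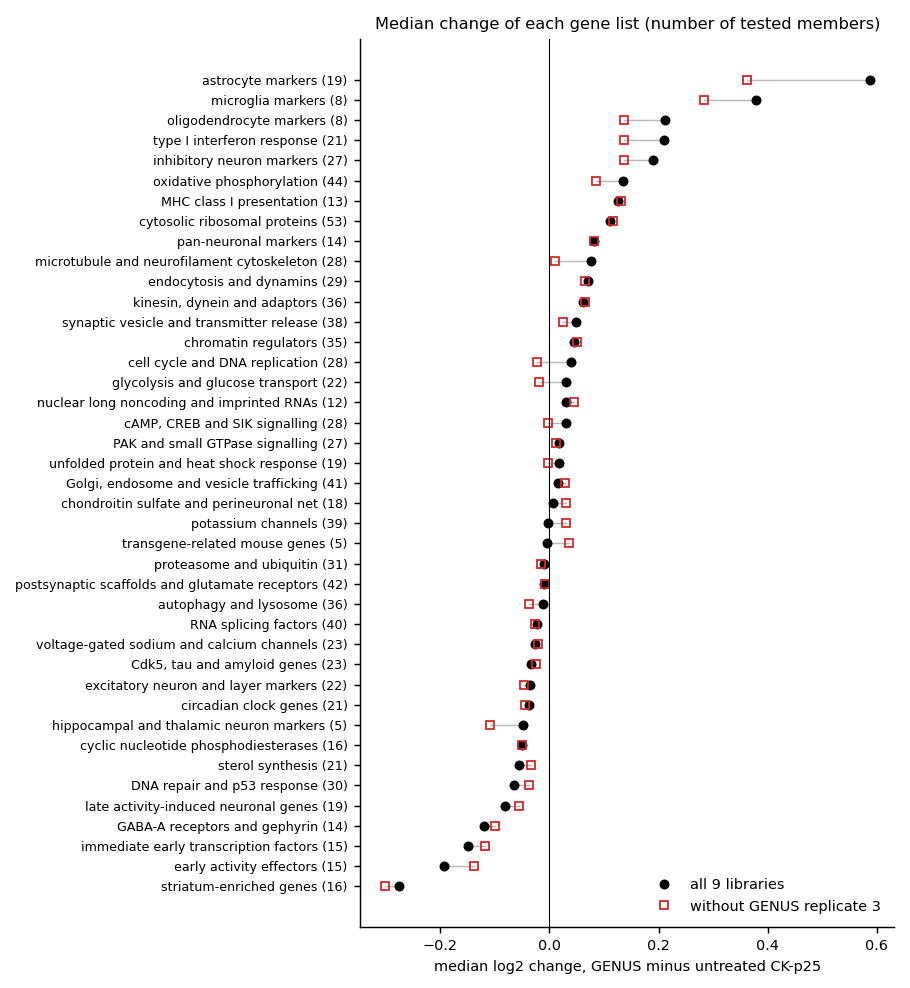
Median log2 change (GENUS minus untreated CK-p25 nuclei) of each gene list with at least 5 tested members, number in brackets, over all 9 libraries (black) and without GENUS replicate 3 (red squares). Astrocyte markers stand highest, at 0.59 and 0.36 without that library, and striatum-enriched genes lowest, at -0.27 and -0.30.

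Markers of cell types were examined in the same libraries, since a sorted population can hold other cells. Of 19 astrocyte markers tested, 18 lay above 0, with a median of 0.59, and 5 were higher at an unadjusted p under 0.05, 0 past the test. Gfap, the intermediate filament of astrocytes, stood at 13.8, 17.2, 19.8, 12.6 and 14.4 FPKM untreated and 15.6, 19.9, 57.7 and 20.1 after GENUS, with CK at 0.883 to 2.87 (log2 change 0.65, SE 0.31, adjusted p = 0.673). GENUS replicate 3 stood far above all other libraries, and without it the log2 change was 0.25. Sox9, a transcription factor of astrocytes, stood at 2.98, 2.36, 3.41, 2.33 and 2.85 and 3.12, 4.03, 6.83 and 4.46 (log2 change 0.54, and 0.36 without GENUS replicate 3). The other 3 GENUS libraries summed to 252.6 to 262.3 FPKM over all 20 markers, just above the highest untreated library at 251.8. The median of the list was 0.36 without GENUS replicate 3.

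Of 22 microglia markers, 8 reached the minimum level, 6 above 0 and 2 below, with a median of 0.38, and 0.28 without GENUS replicate 3. All 22 summed to 33.3, 22.5, 26.5, 21.8 and 27.7 FPKM in untreated and 34.7, 36.6, 56.4 and 31.9 in GENUS libraries, with CK at 13.8 to 20.8. C1qa, a complement protein that microglia make, stood at 2.25, 2.05, 1.59, 0.535 and 0.798 and 5.77, 5.25, 3.96 and 0.569 (log2 change 0.86, SE 0.43), and C1qc at 1.74, 0.703, 2.19, 1.105 and 1.23 and 2.17, 1.804, 2.04 and 2.35, with 0 listed in all 5 CK libraries. The defining microglial genes Cx3cr1, P2ry12, Tmem119 and Csf1r stayed below the minimum mean of 1 FPKM, at 0 to 1.79 in any library. For endothelial and mural cells, 1 of 19 markers, Kcnj8, was listed at 0 in all 9 libraries, and for choroid plexus and ependyma 2 of 10, Folr1 and Tmem212. The 3 endothelial and mural markers tested had a median log2 change of 0.07, and of -0.32 without GENUS replicate 3. The part of these other cells in the results above was not tested.

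**Figure D5:**
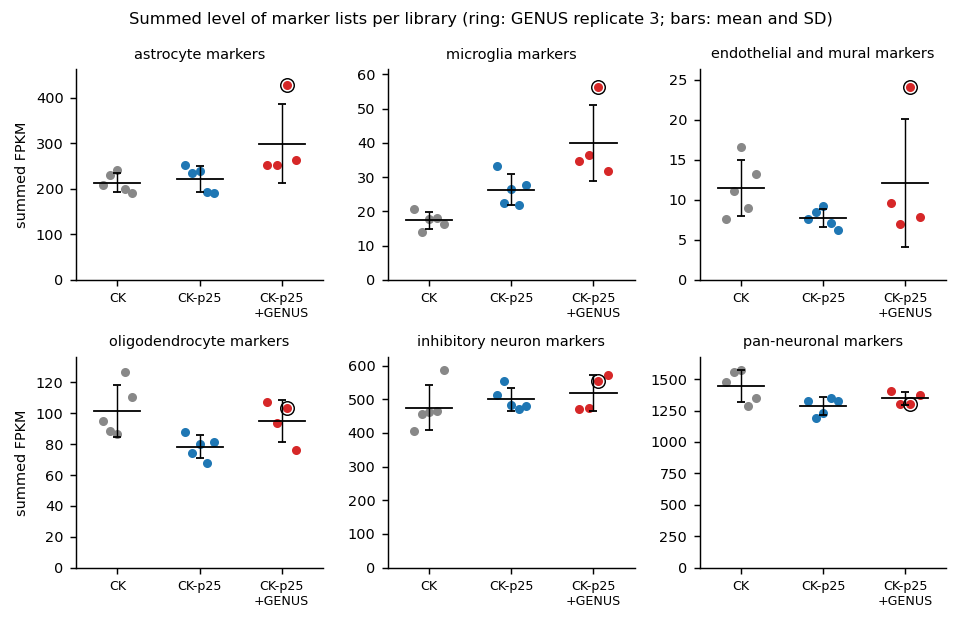
Summed FPKM of 6 lists of cell type markers in each library of CK (grey, n = 5), untreated CK-p25 (blue, n = 5) and GENUS-treated CK-p25 mice (red, n = 4), with lines at the mean and bars of 1 SD. GENUS replicate 3, ringed, stands above the other GENUS libraries for astrocyte (428.2), microglia (56.4) and endothelial and mural markers (24.1), and not for pan-neuronal ones.

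The neuron classes were examined in the same way. Excitatory neuron and layer markers had 22 members, 10 above 0 and 12 below, with a median of -0.04 (0.0066 without untreated replicate 1). At an unadjusted p under 0.05 there were 0 higher members and 1 lower, Ctgf. Camk2a, whose promoter is active chiefly in excitatory neurons, had a log2 change of 0.007. Slc17a7, the vesicular glutamate transporter of cortical neurons, stood at 99.6, 127, 102, 115 and 122 FPKM untreated and 112, 89.96, 88.4 and 114 after GENUS (log2 change -0.17, SE 0.10, and -0.11 without GENUS replicate 3). Ctgf, a marker of the deepest cortical layer, stood at 10.6, 10.6, 8.03, 10.9 and 11.5 and 6.41, 10.5, 6.22 and 5.37 (log2 change -0.51, SE 0.18), with GENUS replicate 2 among the untreated values. Inhibitory neuron markers had 27 members, 21 above 0 and 6 below, with a median of 0.19, and 0.14 without GENUS replicate 3 and 0.29 without GENUS replicate 1. Gad1, which makes GABA, stood at 21.9, 17.1, 18.4, 17.97 and 14.9 and 15.4, 21.4, 27.6 and 24.9 (log2 change 0.27, SE 0.16, with 0.16 without GENUS replicate 3 and 0.43 without GENUS replicate 1), and Vip at 20.4, 17.9, 25.7, 17.2 and 15.05 and 21.1, 20.02, 27.1 and 26.8 (log2 change 0.30). Pvalb, the marker of the fast-spiking cells that pace gamma rhythms, was low and scattered at 5.68, 7.74, 2.67, 2.03 and 5.03 and 0.664, 3.68, 8.34 and 4.31.

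The response was last set beside that of P301S nuclei, in 1 model over 20 libraries with a term for the difference. Of 12469 genes, 0 differed in their response between the models by limma at an adjusted p of 0.05 (0% called), and 595 (4.77%) had an unadjusted p under 0.05, with a lowest adjusted p of 0.391. For GENUS in P301S nuclei, 0 genes passed in this same model, which shares its spread with the CK-p25 libraries. Of the 12469 genes, 844 had an unadjusted p under 0.05 for it. Across the tested genes, which are not independent, the log2 changes of both models had a Pearson correlation of -0.0209 and a Spearman correlation of 0.060. Values of the models were deposited as separate files. The flicker lasted 43 days in CK-p25 and 22 in P301S mice, and the transgenes and their promoters differ. P301S mice were 8 months old, while the age of the CK-p25 mice is not stated. The comparison also holds these differences.

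The genes named by rule were chosen for a small p in CK-p25 nuclei, so a smaller change in P301S nuclei can follow from that choice alone. Pde10a had a log2 change of -0.78 in CK-p25 and -0.05 in P301S nuclei, where it stood at 23.5 ± 2.795 FPKM (SD, n = 6) untreated and 22.9 ± 5.101 (n = 5) after GENUS. The difference of -0.73 had an adjusted p of 0.522. Sik3 (0.07), Mirg (0.13) and Pak7 (-0.30) had P301S log2 changes of the same sign as in CK-p25 nuclei and smaller. Rplp2 had log2 changes of 0.65 in CK-p25 and 0.99 in P301S nuclei, and Cnih2 of -0.49 and -0.52. Tm2d1 stood the other way in P301S nuclei, with -0.82 in CK-p25 and 0.66 in P301S. The smallest p of the difference belonged to Prkar2b and Pigp on the lower side. Prkar2b had log2 changes of -0.61 and 0.43 (difference -1.04, adjusted p = 0.391), and Pigp, of the synthesis of glycosylphosphatidylinositol anchors, of -0.73 and 1.24 (difference -1.97, adjusted p = 0.391). Bean1 (0.19 and -0.81, adjusted p = 0.509) and Nudt8 (1.14 and -0.70) led on the higher side. None passed the test, so a difference in response between the models was not shown for any single gene, and equal responses were not shown either.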

How the data were processed

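Nuclear RNA of NeuN-sorted neurons of the visual cortex was sequenced with the SMARTer Stranded Total RNA-Seq Kit for Pico Input, per the labels' protocols. The authors deposited 1 table of FPKM for each library, with 23953 gene symbols. The submitters' processing notes name STAR, Cufflinks 2.0.0 and mm9 without a role or order. The strand setting, like annotation and filters, is not given in the sources used here, so reads of overlapping and antisense genes cannot be told apart. FPKM are not counts and the depth is unknown, so no counting interval is given. Small RNA rows (by name, AF and DQ clones included) held 70.8% to 76.9% of each library's FPKM total, yet median-ratio factors between libraries were 1.006 to 1.012.

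Groups and replicate numbers come from the titles. Genes with a mean of at least 1 FPKM over the 9 libraries were kept (12588), values were transformed to log2(FPKM + 1), and a model with 2 groups was fitted with limma 3.58.1 (moderated, with a mean-variance trend) in R 4.3.3. P-values are two-sided and adjusted over all tested genes (Benjamini-Hochberg, threshold 0.05). On simulated data with 12588 genes varying independently and 200 changed in each of 5 runs, this comparison's fit recovered 25.4%, 65.7% and 91.5% of genes changed by 0.5, 1 and 2 on the log2 scale, and false calls made up 6.05% of calls. Each simulated run mixed these sizes of change, and larger changes ease the adjusted threshold for smaller ones. The share recovered at 0.5 can therefore be too high for data in which all changes are small. The response was compared with that of P301S nuclei by an interaction term over 20 libraries. No pair of libraries held identical values.

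The members and the 44 gene lists were chosen with earlier results of these data known. Genes named are, by rule, the 12 with the smallest p in each direction whose groups do not overlap and whose mean is at least 2 FPKM, leaving out small RNAs, predicted genes and clone names, the member of each list with the smallest p in each direction, and a fixed set of markers; a few genes that this rule or the lists hold are not reported here, so 11 higher genes are named. Further list members, and those named with values near 0, were chosen after their values were seen. Promoters are RefSeq windows of GRCm38.p6, matched by symbol for 9275 of the tested genes, and motifs were searched on both strands with Python 3.11.15. Alternatives were another pseudocount (0.1), other minimum levels, CK in the fit, median-ratio rescaling, array weights, a replicate block and leaving out each library.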

Additional observations from a re-analysis of the deposited data

Results flagged for a closer look

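In 380 groups of values of named genes and gene lists, 26 had a library whose gap to the nearest of the others was large against the whole range of its group by Dixon's criterion, which chance meets in about 1 of 20 groups. GENUS replicate 3 and untreated replicate 1 accounted for equally many, and for most of them together. GENUS replicate 3 stood above the others for Gfap (57.7 FPKM against 15.6 to 20.1) and Ntsr2 (7.01 against 3.87 to 4.16), both astrocyte genes, and for the mean log2 level of astrocyte markers (3.59 against 2.60 to 2.70) and of cytoskeletal genes (5.00 against 4.78 to 4.796). It stood below the others for Cacna1e (71.0 against 82.2 to 84.0), Mpv17 (7.84 against 9.01 to 9.14), Snx1 (16.1 against 19.4 to 20.002) and the mean log2 level of nuclear noncoding and imprinted RNAs (7.501 against 7.86 to 7.89), and it was listed at 0 for Bglap3, against 3.28 to 3.598.

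Untreated replicate 1 stood above the other untreated libraries for Nsf (58.8 FPKM against 39.1 to 43.2), Rplp1 (61.5 against 22.7 to 33.0), Atf4 (41.1), Chd2 (40.5) and Mobp (9.04), and for the mean log2 level of glycolysis genes (4.25). It stood below them for Cacna1e (81.4), Scn1a (64.1) and the mean log2 level of GABA-A receptor genes (4.92 against 5.02 to 5.04). Untreated replicate 3 stood apart for Ctgf (8.03, low), Kmt2a (89.3, low) and Ptprz1 (5.84, high), and untreated replicate 4 for Gabra3 (16.7, high).

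In the other GENUS libraries, Trio was high in replicate 4 (80.5 FPKM), Scn3a was high in replicate 2 (16.5 against 16.1 in each of the others), circadian genes had a low mean log2 level in replicate 2 (3.95), and excitatory neuron markers a high one in replicate 1 (4.19).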

How the results depend on the processing

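The count of 0 genes past the test by limma held under 15 of 19 alternatives. It became 1 with a pseudocount of 0.1 (the clone name 2410004N09Rik), 1 with the replicate block (the small RNA Mir7060), 0 to 1 when 1 library was left out (1, again Mir7060, without untreated replicate 5), and 3 (Pde10a, Sik3 and Mirg) in the 20-library fit with at least 5 FPKM, chosen after seeing the data. The count of genes past the test stayed at 0 in the 20-library fit with at least 1 FPKM. It also stayed at 0 in the fit of the 9 libraries with at least 5 FPKM. The count at an unadjusted p under 0.05 was 766 to 1228 in place of 970. Genes whose groups do not overlap numbered 326, 461 to 658 when 1 library was left out, and 874 without untreated replicate 2 and GENUS replicate 3, as fewer libraries overlap less often. Same-numbered libraries did not deviate together over all tested genes (correlations of -0.103 to -0.014), a check that would miss a pairing that moves few genes. With the replicate block, 768 genes had an unadjusted p under 0.05. Most of the 137 named genes were chosen for a small p or separate groups in these same libraries, so their direction could hardly turn. None had passed the main test, so the side of the threshold could hardly change either. Of 2567 values for these 137 genes, 2545 kept direction and side of the threshold, 3 passed it and 19 turned direction, all in 3 genes near 0. Camk2a ran from -0.0351 to 0.0366 when 1 library was left out and was -0.0058 without both libraries named above. Cdk5r1 ran from -0.0478 to 0.0574, and was 0.0152 with array weights, 0.0114 with the replicate block and 0.0628 without both libraries. Npas4 ran from -0.11 to 0.10, and was 0.0446 with the replicate block and 0.11 without both. The cause was not tested. List medians moved by more than the spread in 9 of 745 alternatives, in 7 of 44 lists. The spread is the SD, within groups, of a list's mean log2 level between libraries, which can be wide beside the median. For immediate early factors it was 0.245, so a move of their median from -0.15 to -0.31 was not counted. Changes of sign within the spread were not counted either. The difference between models stayed at 0 called genes in 3 alternatives. Depth is unknown, and values near the minimum of 1 FPKM are the least certain.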
